A study of Mus musculus with 1 sample.

Results

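The cells described here are 182 lymphoid cells of the neonatal mouse pancreas that were selected on 6 genes of regulatory T cells, innate-like T cells and natural killer (NK) cells. They were 1.80% (95% interval 1.55 to 2.08) of the 10129 retained cells of the library, which listed 11789 barcodes and 51540177 UMIs in all. A retained cell had more than 800 and fewer than 10000 unique molecular identifiers (UMIs, the tags by which captured transcripts are counted) and under 15% mitochondrial UMIs. A member cell then had at least 2 UMIs summed over Ikzf2, Ctla4, Izumo1r, Zbtb16, Gzma and Xcl1, and at least 1 UMI of Ptprc, Cd3d, Cd3e, Cd3g or Trac. It had at most 1 UMI of the B cell genes Cd79a, Cd79b and Ms4a1, none of Cpa3, Mcpt4, Il5, Mki67 or Top2a, and fewer than 10 of the collagen genes Col1a1 and Col3a1. Of 464 retained cells with 2 UMIs of the 6 genes, 127 failed the leukocyte condition, 26 the B cell condition, 16 the mast cell and Il5 condition, 104 the cell cycle condition and 172 the collagen condition, and a cell could fail several.

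The study examined SCAP, the sterol-sensing escort protein of the SREBP transcription factors, in the pancreas. The values come from 1 droplet library of the Scap f/f genotype, in which both Scap alleles are flanked by loxP sites and no Cre recombinase is present. It was made from pooled pancreas of 5 to 6 animals of both sexes, 2 weeks old, so the spread between animals cannot be seen, no test between groups could be made, and all intervals cover counting error only. The library of mice with pancreatic deletion of Scap was not analysed here.

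Regulatory T cells are CD4 T cells that restrain other lymphocytes. Their master transcription factor is FOXP3, and they commonly carry the inhibitory receptor CTLA4, the transcription factor Helios (Ikzf2) and the folate receptor family member FR4 (Izumo1r). Innate-like T cells, among them invariant NKT cells and many gamma-delta T cells, acquire effector functions during development under the transcription factor PLZF (Zbtb16), while NK cells lack a T cell receptor and kill with granzymes such as GZMA. XCL1 is a chemokine of NK cells and activated CD8 T cells that attracts cross-presenting dendritic cells. Helios is also found in T cells other than regulatory T cells.

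The 6 selecting genes lie on 3 autosomes. By the GENCODE M21 annotation of GRCm38 they are Ikzf2 (chromosome 1, 69531214 to 69687245, reverse strand), Ctla4 (chromosome 1, 60887000 to 60915832, forward strand), Xcl1 (chromosome 1, 164931644 to 164935527, reverse strand), Izumo1r (chromosome 9, 14885814 to 14903949, reverse strand), Zbtb16 (chromosome 9, 48654297 to 48836222, reverse strand) and Gzma (chromosome 13, 113093825 to 113100981, reverse strand). Values are UMIs summed over each gene and were not assigned to exons. Ikzf2 and Zbtb16 are the longest of these loci, at 156.0 and 181.9 kb.

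Ikzf2 was the selecting gene seen in most members. It gave 585 of the 1062 UMIs of the selecting genes (55.1%) and was seen in 147 cells (80.8%), whereas Ctla4 gave 146 UMIs in 67 cells and Izumo1r 76 UMIs in 50 cells. The innate genes were seen in fewer cells, with 124 UMIs of Xcl1 in 27 cells, 94 UMIs of Gzma in 13 cells and 37 UMIs of Zbtb16 in 19 cells. Gzma was concentrated, with up to 24 UMIs in a cell, whereas no cell held more than 4 UMIs of Zbtb16. These counts describe the selection and are no finding. Without Ikzf2 in the sum, 93 cells would have been chosen.

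The same genes were not silent elsewhere. Among 5856 collagen-rich cells without leukocyte genes (fibroblasts, median 2636 UMIs), 6.52% had an Ikzf2 UMI, 4.20% a Zbtb16 UMI and 0.751% a Ctla4 UMI, against 0.103% for Gzma, 0.103% for Xcl1 and 0.0512% for Izumo1r. A lone UMI of Ikzf2 or Zbtb16 therefore marked a lymphoid cell less sharply than a UMI of the other 4 genes.

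Members were divided by which genes chose them. The regulatory arm had UMIs of Ikzf2, Ctla4 or Izumo1r and none of the other 3 genes, and held 133 cells (73.1%, 95% interval 66.0 to 79.4). The innate arm had Zbtb16, Gzma or Xcl1 alone and held 13 cells (7.14%, 3.86 to 11.9), and the mixed arm with genes of both kinds held 36 cells (19.8%, 14.3 to 26.3). Median depth was 1759, 1716 and 2695 UMIs per cell in the 3 arms, so the mixed arm was the deepest. In 78 members a single selecting gene was seen, in 69 a pair of them, in 33 there were 3 and in 2 there were 4. The commonest of the 27 combinations were Ikzf2 alone (56 cells), Ikzf2 with Ctla4 (25 cells), Ikzf2 with Ctla4 and Izumo1r (18 cells) and Ikzf2 with Izumo1r (16 cells). Of the 13 cells with Gzma 7 also had Xcl1 and 1 had Zbtb16, as the plot of UMIs per member shows.

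**Figure D1:**
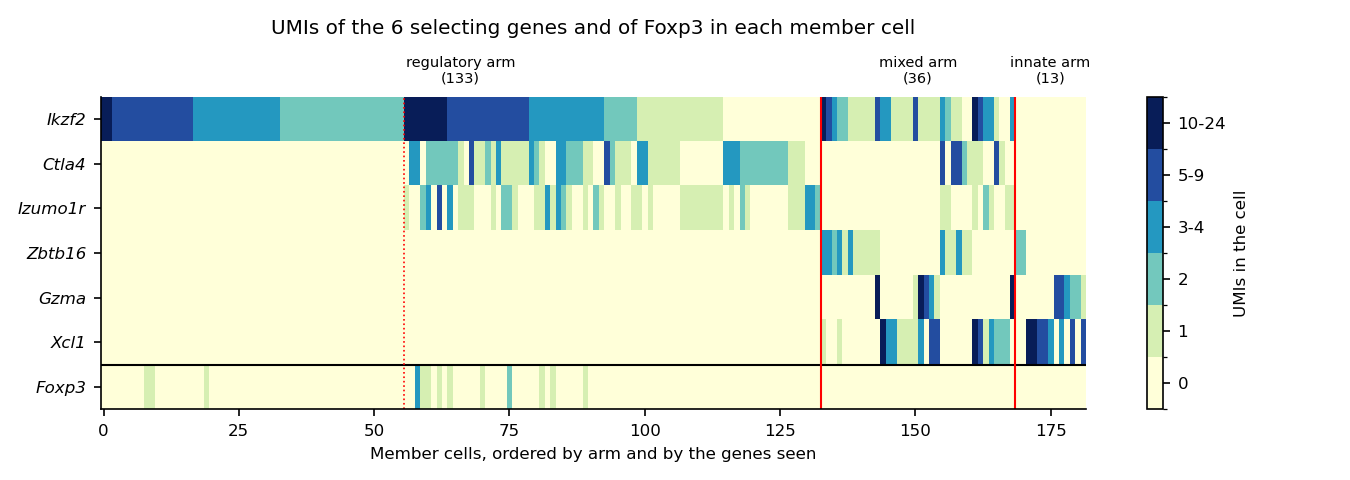
UMIs of the 6 selecting genes (rows) and of Foxp3 (bottom row, not used in the selection) in each of the 182 member cells (columns), with colour for the number of UMIs. Solid red lines separate the regulatory arm (133 cells), mixed arm (36 cells) and innate arm (13 cells), and the dotted line separates the 56 cells of the regulatory arm with Ikzf2 alone from the 77 with Ctla4 or Izumo1r; the 13 cells with Foxp3 all lie in the regulatory arm.

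Levels are given as CPM, the UMIs of a gene per 1000000 UMIs of all genes, summed over the cells of a group. At the threshold, members and the cells next to them differed by degree. The 58 members with exactly 2 UMIs of the selecting genes held 66 UMIs of Ikzf2, 23 of Ctla4, 13 of Izumo1r, 9 of Zbtb16, 3 of Xcl1 and 2 of Gzma. Just outside, 156 cells met every other condition with 1 UMI, which was Ikzf2 in 70 cells, Ctla4 in 48, Izumo1r in 19, Zbtb16 in 8, Gzma in 7 and Xcl1 in 4. The level of Tox, a transcription factor of developing and chronically stimulated T cells, was 412 CPM just outside, 684 CPM just inside and 1176 CPM in the 124 members with over 2 UMIs. The level of Icos, a costimulatory receptor, was 209, 247 and 333 CPM in the same order. Foxp3 was seen in 1 of the 156 cells outside, in none of the 58 just inside and in 13 of the 124 others.

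The name regulatory T cells was borne out by Foxp3 for few of the cells. Foxp3 (chromosome X, 7573644 to 7595245, forward strand) was not used in the selection and gave 17 UMIs in 13 of the 182 members (7.14%, 3.86 to 11.9). All 13 cells were in the regulatory arm, where the level was 53.4 CPM (31.1 to 85.4). No UMI was seen in the 36 cells of the mixed arm, the 13 cells of the innate arm, 58 CD4 T cells or 160 CD8 T cells. The CD4 and CD8 T cells were chosen for Cd4 or for Cd8a and Cd8b1, with 2 UMIs of T cell receptor genes and none of the 6 selecting genes, and their median depths of 1925 and 1832.5 UMIs were close to the 1910 of the members. Against both together the Foxp3 level of the members was at least 6.12-fold higher. Foxp3 entered that comparison through the members alone. All 13 Foxp3 cells also held Ikzf2, which the T cells lacked by choice, so the fold is a description and no support. Among 5204 fibroblasts (median 2515 UMIs) 3 had a Foxp3 UMI, and when every cell was thinned to 800 UMIs 7 members (3.85%) still did.

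Of the selecting genes, Ikzf2 was seen in all 13 Foxp3 cells, and Ctla4 and Izumo1r in 8 each, which the selection itself favoured. Of genes outside the rule, the high-affinity IL-2 receptor chain Il2ra was seen in 4, the costimulatory receptors Tnfrsf4 (OX40) in 5, Tnfrsf18 (GITR) in 7 and Icos in 7. No gamma-delta T cell receptor gene was seen in them, and Cd4 was seen in 2 and Cd8b1 in 2 others. At this depth a gene of moderate level is missed in most cells, so an undetected Foxp3 or Cd4 does not class a cell as lacking it.

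Against CD4 T cells the regulatory arm had higher levels of several regulatory T cell genes. A gene was counted as higher or lower at a 2-fold ratio of levels, each raised by 20 CPM, among genes with 10 UMIs in both groups together. Ratios printed with an interval are plain ratios of levels, with nothing added, and medians and ranks of ratios are on the scale with 20 CPM added. Over all genes, 371 of 5846 were higher (6.35%) and 169 lower (2.89%), with a median ratio of 1.02. Of the 22 regulatory T cell genes listed, 13 could be compared and 9 were higher, namely Foxp3, Il2ra, Il2rb, Tnfrsf4, Tnfrsf9, Icos, Capg, Nrp1 and Itgb8, and none was lower. Of these, Foxp3, Il2ra, Tnfrsf9 and Itgb8 gave no UMI in the CD4 T cells, entered the comparison through the regulatory arm alone and could come out no other way, so the count is a description and no support. The same holds for Trdc, Tcrg-C1, Tcrg-C4 and Cd163l1 among the 5 gamma-delta and type 17 genes called higher, and for Ccl4 and Ccl5 among the 5 cytotoxic genes. At 0 in the CD4 T cells were 8 of the 22 regulatory, 12 of the 14 gamma-delta and type 17 and 6 of the 13 cytotoxic genes listed. Of the residence and activation genes 6 of 11 were higher. Among them, Cxcr3 and Itgae gave no UMI in the CD4 T cells and had to come out higher, so this count too is a description. All 9 regulatory T cell genes were also above the CD8 T cells. Foxp3 and Nrp1 gave no UMI there and had to come out above, and the 9 had been picked as higher than in CD4 T cells. This too is a description and no support. For Il2rb the ratio was 1.19 (0.802 to 1.76), an interval that includes 1. The genes of this list were chosen with earlier results of these cells in view and are described, not tested.

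Icos was the most abundant of them. It reached 317 CPM (258 to 385) in the regulatory arm, 121 CPM (69.3 to 197) in CD4 T cells and 106 CPM (75.0 to 146) in CD8 T cells. The Icos ratios were 2.62 (1.54 to 4.75) and 2.99 (2.04 to 4.46), and both intervals lie above 1. Tnfrsf4 gave 39 UMIs in the regulatory arm and 2 in each of the comparison groups, with ratios of 8.08 (2.09 to 69.1) to CD4 T cells and 21.9 (5.68 to 188) to CD8 T cells. Nrp1, a semaphorin receptor of thymus-derived regulatory T cells, gave 28 UMIs against 2 in CD4 T cells and none in CD8 T cells. Nrp1 is also abundant in fibroblasts (196 CPM), and fibroblast markers gave UMIs in 146 of the 182 members. The part of fibroblast RNA in the Nrp1 level was not tested.

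Maf and S100a4 stood out further. The transcription factor gene Maf was at 295 CPM in the regulatory arm, 15.1 CPM in CD4 T cells and 25.1 CPM in CD8 T cells, where it gave 94, 2 and 9 UMIs. S100a4, a calcium-binding protein of memory T cells, was at 286 CPM against 30.3 and 25.1 CPM. Of the 91 S100a4 UMIs, 22 came from 1 Foxp3 cell. Tox was at 1099 CPM against 500 CPM in CD4 T cells (ratio 2.20, 1.69 to 2.90) and 212 CPM in CD8 T cells (ratio 5.18, 4.03 to 6.73).

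The genes with the largest ratio to CD4 T cells were Ccl5, AW112010, Maf, Nkg7, Plac8, Ly6c2, Myo1e, Tnfrsf9, S100a4 and Tbc1d4. Several of these are cytotoxic or CD8 T cell genes, and for them the result turned on the comparison cells. The chemokine Ccl5 gave 103 UMIs in the regulatory arm and none in CD4 T cells (at least 14.2-fold higher), yet its ratio to CD8 T cells was 0.367 (0.291 to 0.459). The granule gene Nkg7 had a ratio of 29.8 (5.19 to 1195) to CD4 T cells on 1 UMI there, and of 0.382 (0.288 to 0.501) to CD8 T cells. Ly6c2 was likewise below CD8 T cells (0.268, 0.186 to 0.379). The 10 smallest ratios to CD4 T cells included those of Tnfaip8l2, St8sia6, Flt3l, Dph5 and Tgfbr3, all on 26 or fewer UMIs in either group.

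The regulatory arm held cells with either coreceptor. Cd8a or Cd8b1 without Cd4 was seen in 41 of its 133 cells, Cd4 without either in 17, both in 4 and neither in 71. Genes of naive T cells were seen at lower or similar levels. Lef1, a transcription factor of naive T cells, was at 914 CPM against 1477 CPM in CD4 T cells (ratio 0.619, 0.514 to 0.745), and the chromatin organizer Satb1 at 964 against 1787 CPM (0.539, 0.454 to 0.642). The lymph node homing receptor Ccr7 was at 235 against 258 CPM, a ratio whose interval of 0.602 to 1.41 includes 1. Of the 8 naive and recirculating genes none passed 2-fold either way, and the median ratio was 0.668.

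The cells with Ikzf2 alone and those with Ctla4 or Izumo1r differed within the regulatory arm, a division made after the values had been seen. Foxp3 was in 10 of the 77 cells with Ctla4 or Izumo1r (14 UMIs) and in 3 of the 56 with Ikzf2 alone (3 UMIs), with a ratio of levels of 3.46 (0.966 to 18.8) whose interval includes 1. Il2ra was at 137 and 14.7 CPM (ratio 9.27, 2.31 to 80.7) and Maf at 426 and 118 CPM (3.61, 2.09 to 6.63). Both genes were thus higher in the cells with Ctla4 or Izumo1r. Ccl5 ran the other way, at 92.9 CPM against 634 CPM in the cells with Ikzf2 alone (0.147, 0.0816 to 0.249), as did Nkg7 (0.419, 0.249 to 0.692). Cd8b1 was seen in 23 of the 56 cells with Ikzf2 alone and 19 of the 77 others, with a ratio of 0.773 (0.507 to 1.18), and Cd8a gave 22 and 14 UMIs (0.472, 0.223 to 0.964).

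Some gamma-delta T cell genes were also higher in the 56 cells with Ikzf2 alone. Trdc, the constant gene of the delta chain, gave 24 UMIs in 9 of the 56 and 5 UMIs in 2 of the 77 (ratio 0.155, 0.0460 to 0.413). Tcrg-C4, a constant gene of the gamma chain, gave 14 UMIs in 5 of the 56 and none in the others, at least 6.29-fold lower. Tcrg-C1 gave 11 and 6 UMIs (0.404, 0.123 to 1.19), a ratio whose interval includes 1. Cd163l1, a scavenger receptor of gamma-delta T cells, gave 17 UMIs and 1 UMI. The IL-7 receptor Il7r was also higher in the cells with Ikzf2 alone, at 50 against 27 UMIs (0.400, 0.241 to 0.652).

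Across all members, Trdc, Tcrg-C1, Tcrg-C2 or Tcrg-C4 was seen in 32 of 182 cells (17.6%, 12.4 to 23.9). The same genes were seen in none of 58 CD4 T cells, 1 of 160 CD8 T cells (0.625%) and 5 of 5204 fibroblasts (0.0961%). Of the 32 cells 22 had at least 2 such UMIs, and 23 had no UMI of Trac, the constant gene of the alpha chain. By arm they were 17 of 133 in the regulatory arm, 13 of 36 in the mixed arm and 2 of 13 in the innate arm. Reads of the near-identical gamma constant genes may be split or lost in counting, so the level of each single gene is uncertain, and the CD4 and CD8 T cells were chosen in a way that keeps most gamma-delta T cells out.

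**Figure D2:**
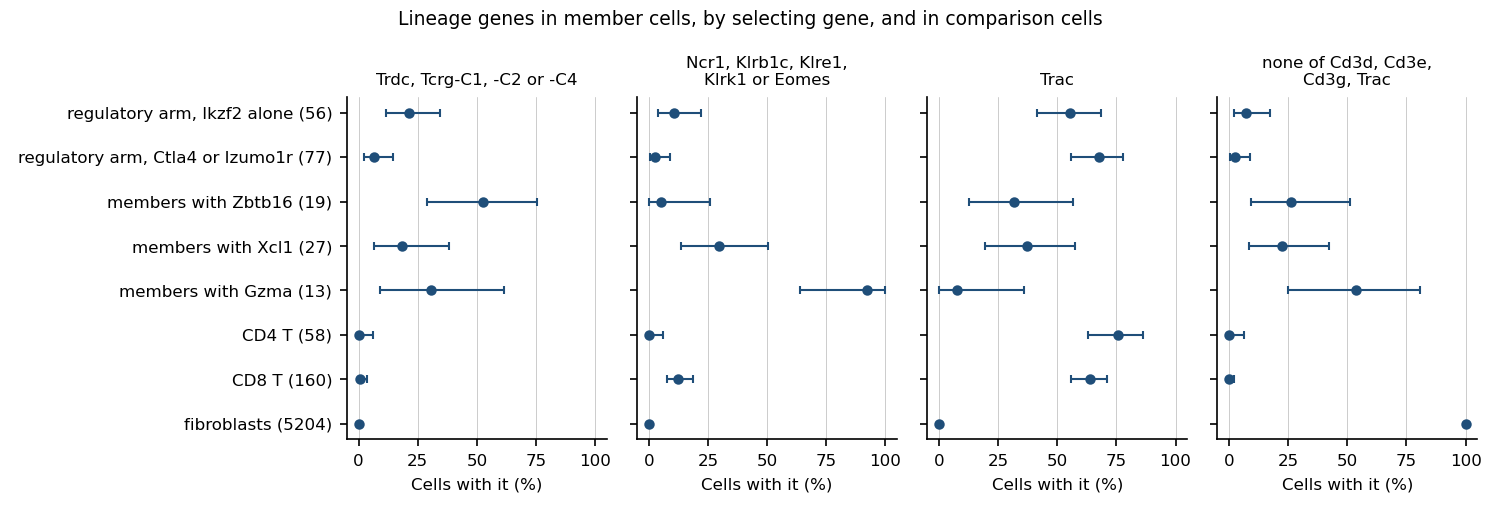
Percentage of cells (horizontal axis) with a UMI of gamma-delta receptor genes, of NK genes, of Trac, and with no UMI of Cd3d, Cd3e, Cd3g or Trac, for members grouped by selecting gene (the groups with Zbtb16, Xcl1 and Gzma overlap) and for CD4 T cells, CD8 T cells and fibroblasts, numbers of cells in brackets. Points are shares and bars exact 95% binomial intervals; gamma-delta genes were seen in 10 of 19 cells with Zbtb16 and NK genes in 12 of 13 cells with Gzma, while fibroblasts lack Trac by their definition.

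The cells with Zbtb16 were the most gamma-delta rich. Of 19 members with a Zbtb16 UMI (median 2486 UMIs per cell, against 1853 in the others), 10 had a gamma-delta receptor gene (52.6%, 28.9 to 75.6), against 22 of the 163 other members (13.5%, 8.66 to 19.7). Trac was seen in 6 of the 19. Cd8a or Cd8b1 was seen in 1 and Cd4 in none. This grouping too was made after the values had been seen.

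Several genes of innate and resident lymphocytes, picked after their values had been seen, were high in the Zbtb16 cells. Rora, a nuclear receptor of innate and type 17 lymphocytes, was at 1068 CPM (806 to 1386) with UMIs in 14 of 19 cells, a ratio of 8.40 (5.65 to 12.5) to the other members. Id2, a repressor that innate lymphocytes require, was in 13 of 19 cells (7.17, 4.67 to 11.0). Maf was in 12 of 19 cells (3.58, 2.52 to 5.04) and the IL-18 receptor Il18r1 in 11 of 19 (5.04, 3.04 to 8.24). The chemokine receptor Cxcr6, which marks resident NKT and T cells, was in 6 of 19 (4.78, 2.33 to 9.50). Of the other residence genes, Crem had a ratio of 3.06 (1.52 to 5.83), Nr4a1 of 1.98 (1.06 to 3.46) and Rgs1 of 1.97 (1.10 to 3.34), while the intervals of Cd44 (0.854 to 2.97), Cd69 (0.415 to 2.10), Cxcr3 (0.121 to 4.76) and Itgae (0.0677 to 2.35) included 1. A pair of genes of recirculation were low there. S1pr1, the receptor for exit from tissue, gave no UMI against 128 in the others, at least 5.58-fold lower, and Ccr7 gave 2 against 81 (0.189, 0.0225 to 0.705). Rora and Maf are themselves abundant in fibroblasts (638 and 745 CPM). The summed fibroblast markers were at 858 CPM in the mixed arm, which held 17 of the 19 Zbtb16 cells, and at 873 CPM in the regulatory arm. These sums are for whole arms and are limited by the collagen condition of the rule. The part of fibroblast RNA in the Rora and Maf levels was not tested.

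The cells with Gzma, also grouped after the values had been seen, carried genes of NK cells. Of 13 members with Gzma (median 1844 UMIs), 12 had a UMI of Ncr1, Klrb1c, Klre1, Klrk1 or Eomes (92.3%, 64.0 to 99.8), receptors and a transcription factor of NK cells, against 10 of the 169 other members (5.92%, 2.87 to 10.6). The same genes were seen in 20 of 160 CD8 T cells (12.5%) and 9 of 5204 fibroblasts (0.173%). In 7 of the 13 no UMI of Cd3d, Cd3e, Cd3g or Trac was seen, against 12 of the 169. One of the 13, with 4627 UMIs in all, held 9 UMIs of Cd3d and 3 of Trac, the receptor complex of T cells.

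Receptor adaptors and some cytotoxic genes were seen in most of these cells. Ccl5 was seen in 13 of 13 cells, at 3071 CPM (2502 to 3732), with 37 of its 101 UMIs in the cell with Cd3d and Trac just described. Tyrobp (DAP12), the adaptor of activating NK receptors, was in 12 of 13 with 40 UMIs, a ratio of 16.0 (9.80 to 26.3) to the other members and of 145 (46.3 to 734) to CD8 T cells on 3 UMIs there. Klrd1 (CD94) was in 12 of 13 (ratio 7.19, 4.49 to 11.4, to CD8 T cells), Nkg7 in 11 (2.01, 1.39 to 2.83), Fcer1g in 10 and Klrk1 (NKG2D) in 8. The granule genes Prf1, with 2 UMIs (2.72, 0.282 to 13.7), and Ctsw, with 8 (1.03, 0.429 to 2.11), did not differ from CD8 T cells beyond their intervals. Ncr1 (NKp46, chromosome 7, 4337724 to 4345164, forward strand), a receptor largely restricted to NK cells and innate lymphoid cells, gave 12 of its 13 member UMIs in 8 of these cells. Of T cell genes, Tcf7 and Icos gave 1 UMI each and Il7r none, whereas Cd28 gave 13 (ratio to CD8 T cells 1.63, 0.834 to 2.93) and Lck 6 (0.696, 0.249 to 1.57). Txk, which is on the list of NK genes, gave 22 (ratio to CD8 T cells 1.46, 0.892 to 2.29).

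**Figure D3:**
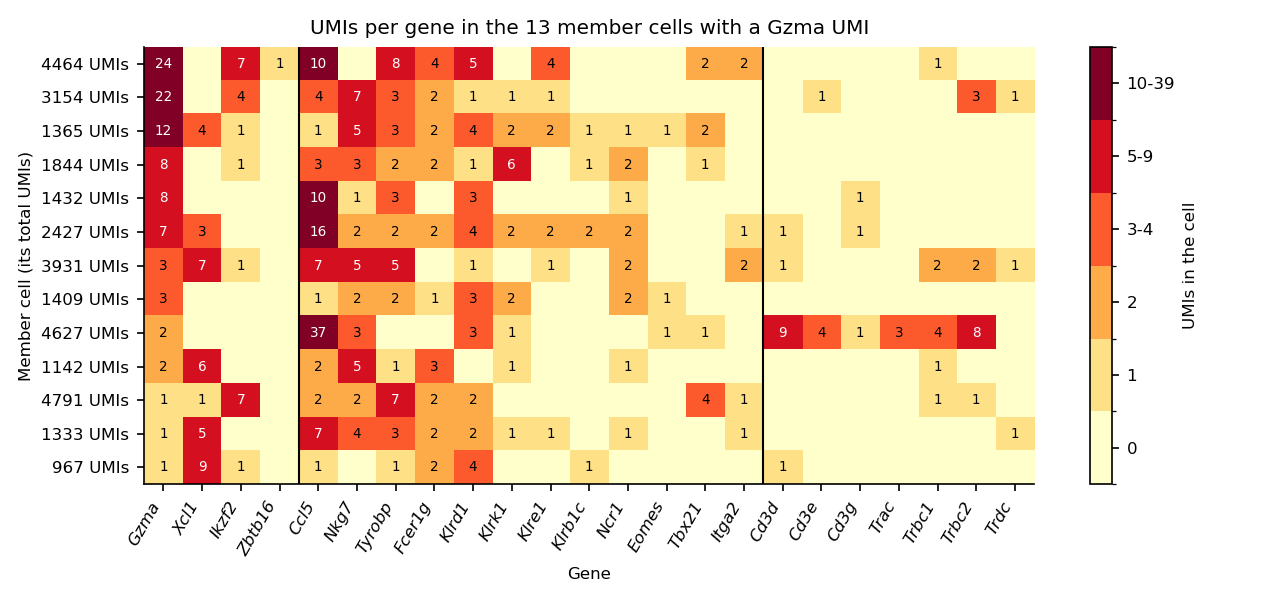
UMIs of each gene (columns) in each of the 13 member cells with a Gzma UMI (rows, labelled by the total UMIs of the cell), with the number printed where above 0. Vertical lines separate genes of the selection, genes of NK and cytotoxic cells, and T cell receptor genes; Ccl5 is filled in all 13 rows, and Trac in 1.

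Gzma and the innate arm were not the same cells. The innate arm held 6 of the 13 Gzma cells, since 7 also had a UMI of Ikzf2 and so fell in the mixed arm. Of its 13 cells, 9 had a UMI of Cd3d, Cd3e, Cd3g or Trac and 4 did not. Against the regulatory arm, 424 of 5067 genes were at least 2-fold higher (8.37%) and 1193 lower (23.5%), with a median ratio of 0.918. Of the NK genes 7 could be compared and 5 were higher (Klrk1, Klrd1, Tyrobp, Fcer1g and Il2rb), and of the cytotoxic genes 6 could be compared and 4 were higher (Nkg7, Serpinb9, Ccl4 and Ccl5). No gene of either list was lower. Of 12 regulatory T cell genes 8 were lower and 1, Il2rb, was higher. Of the 8, Icos gave 1 UMI (ratio 0.104, 0.00260 to 0.592), and the other 7 gave none in the innate arm, with intervals that included 1, so that they were not resolved at this depth. The largest ratios were those of Spry2, Klrk1, Ccl5, Klrd1 and Fcer1g.

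Against CD8 T cells, 566 of 5051 genes were higher in the innate arm (11.2%) and 1099 lower (21.8%). The arm held 30380 UMIs, and the part of its low depth in these shares was not tested. The largest were those of Spry2 (16 UMIs in 5 cells), a feedback inhibitor of receptor kinases, Tyrobp (12 UMIs in 6 cells), Irf8 (9 UMIs in 5 cells) and Lrmda (8 UMIs in 4 cells). Hbb-bs and Hbb-bt were also among the 20 largest, and 794 of 802 and 182 of 183 of their UMIs came from 1 cell. Of the naive genes Ccr7, S1pr1, Lef1 and Il7r were lower than in CD8 T cells, and 4 of 7 cytotoxic genes were higher (Prf1, Serpinb9, Ccl4 and Ccl5). The interval of the plain ratio of levels included 1 for Ccr7 (0.445, 0.119 to 1.17) and for Prf1, on 2 UMIs (2.95, 0.305 to 14.8). With 20 CPM added to each level, the ratio of Ccl4 was 8.38, and it fell to 3.76 when globin-rich cells were left out.

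Cells with Xcl1 differed among themselves. Of the 27 members with Xcl1, 9 had Cd8a or Cd8b1 without Cd4, 2 had Cd4, 8 had an NK gene and 5 a gamma-delta gene. Ifng, the interferon of type 1 lymphocytes, gave 18 of its 23 member UMIs in 9 of these cells, and none in the CD4 and CD8 T cells. The chemokine gene Ccl3 gave 12 of 13 UMIs in 5 of them. Il7r (2 UMIs) and Ccr7 (4 UMIs) were rarely seen in them.

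The mixed arm held 17 of the 19 Zbtb16 cells, and some of its levels differed from those of the regulatory arm. Rora was at 581 CPM against 129 in the regulatory arm (ratio 4.52, 2.99 to 6.88), Id2 at 495 against 91.0 CPM (5.44, 3.39 to 8.89) and Il18r1 at 438 against 72.2 CPM (6.07, 3.60 to 10.5). S1pr1 was at 28.6 against 380 CPM (0.0753, 0.0153 to 0.225), Ccr7 at 38.1 against 235 CPM (0.162, 0.0430 to 0.432) and Lef1 at 343 against 914 CPM (0.376, 0.258 to 0.532). Of the other residence genes, Cxcr6 had a ratio of 3.03 (1.52 to 6.06) and Nr4a1 of 2.07 (1.23 to 3.43). The intervals of further ones included 1, with ratios of 1.01 (0.548 to 1.78) for Cd69, 1.41 (0.860 to 2.27) for Rgs1 and 0.379 (0.0731 to 1.25) for Itgae. In the plot of levels by arm the mixed and innate arms share low Lef1 and high Tyrobp.

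**Figure D4:**
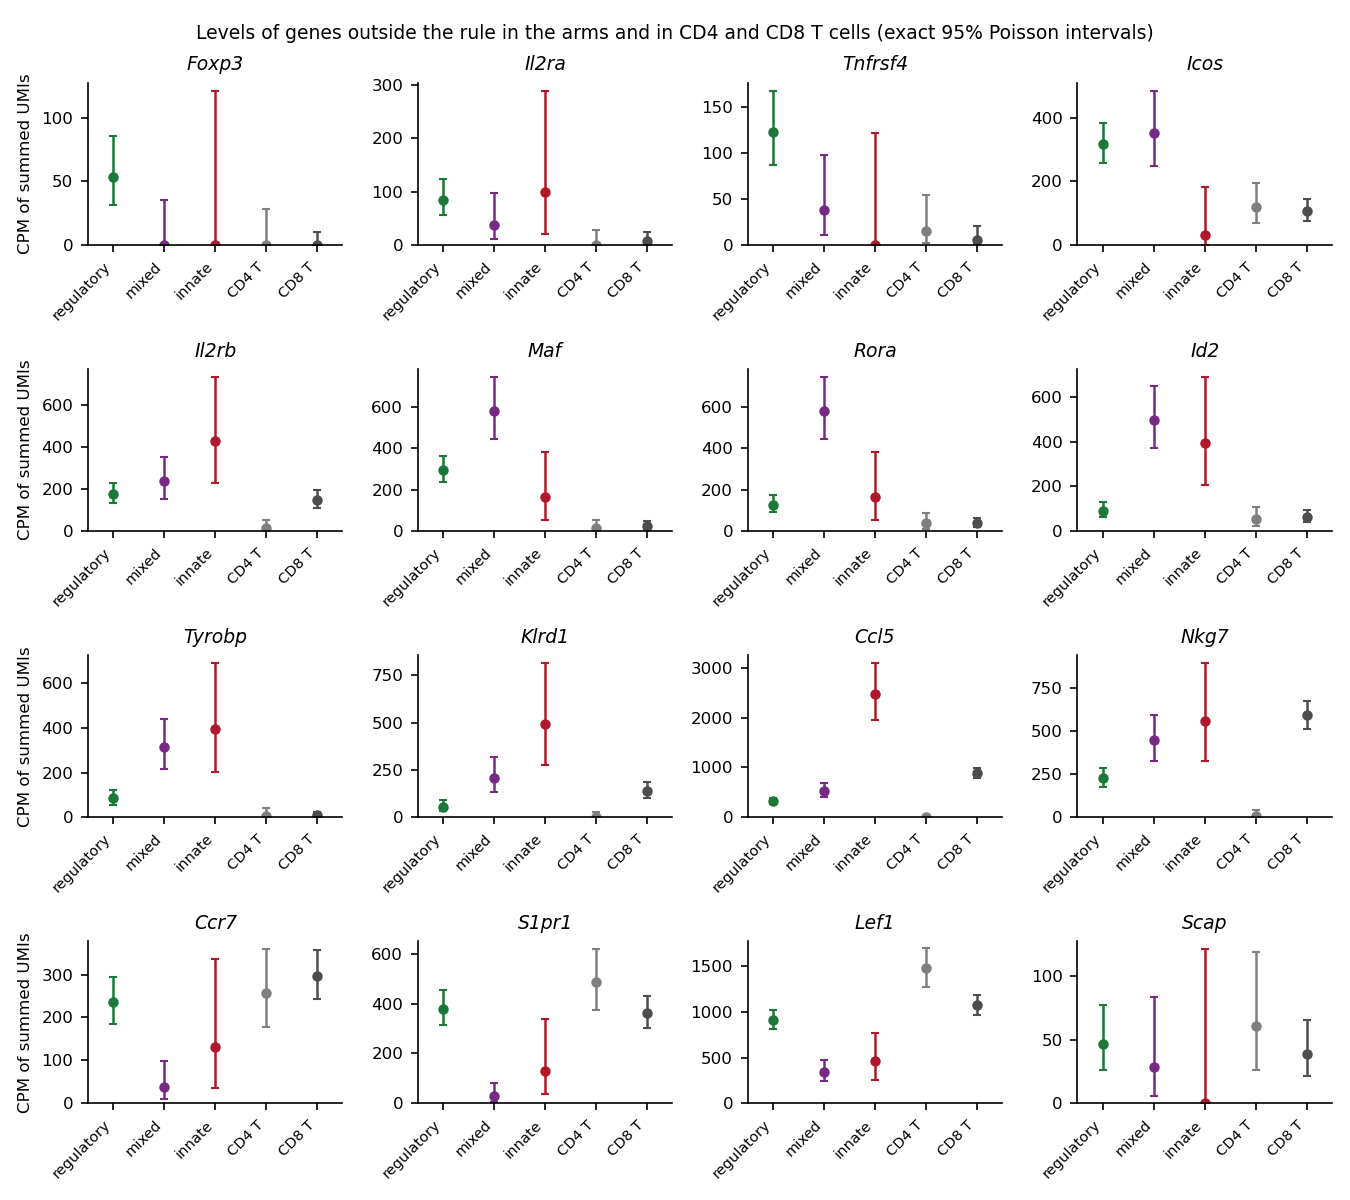
Level of 16 genes (vertical axis, CPM of the summed UMIs) in the regulatory, mixed and innate arms and in CD4 and CD8 T cells. Points are levels and bars exact 95% Poisson intervals, widest in the innate arm with 13 cells; Foxp3 was seen in the regulatory arm alone of these 5 groups, and Ccr7, S1pr1 and Lef1 were lowest in the mixed arm.

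Set against all 218 CD4 and CD8 T cells, the 182 members had 197 of 7980 genes at least 2-fold higher (2.47%) and 41 lower (0.514%), with a median ratio of 1.05. The largest ratios were those of Maf, S100a4, Tyrobp, Myo1e, St6galnac3, Trdc, Hdac9, Rora, Tnfrsf9 and Cd200. Maf was seen in 52 of 182 members and 8 of 218 T cells, at 353 and 22.4 CPM (ratio 15.7, 8.55 to 32.1). After thinning to 800 UMIs it was seen in 19.2% and 1.38% of cells. Rora was at 236 and 38.7 CPM (6.09, 3.71 to 10.5), S100a6 at 820 and 188 CPM (4.37, 3.47 to 5.55) and Tnfrsf9 (4-1BB), induced on activated T cells, at 108 and 10.2 CPM (10.6, 4.24 to 34.1). Of the 46 Hdac9 UMIs 26 came from 1 cell.

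By list, 8 of 15 regulatory T cell genes were higher than in the T cells, 6 of 8 gamma-delta and type 17 genes, 5 of 11 residence and activation genes, 4 of 12 NK genes, 3 of 10 cytotoxic genes and 3 of 5 checkpoint genes. No gene of these lists was 2-fold lower. Icos and Tnfrsf4 were counted in both the regulatory and the checkpoint list. Genes without a UMI in the T cells, such as Foxp3, Ncr1, Tcrg-C1, Tcrg-C4, Ccl3, Ifng and Pdcd1, passed the count filter through the members alone. They had to come out higher, so these counts describe the lists and support nothing. The residence genes were Rgs1, Cd44, Nr4a1, Il18r1 and Id2. The 6 T cell receptor complex genes outside the rule had a median ratio of 1.02 and the 8 naive genes one of 0.721, and none of either passed 2-fold.

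**Figure D5:**
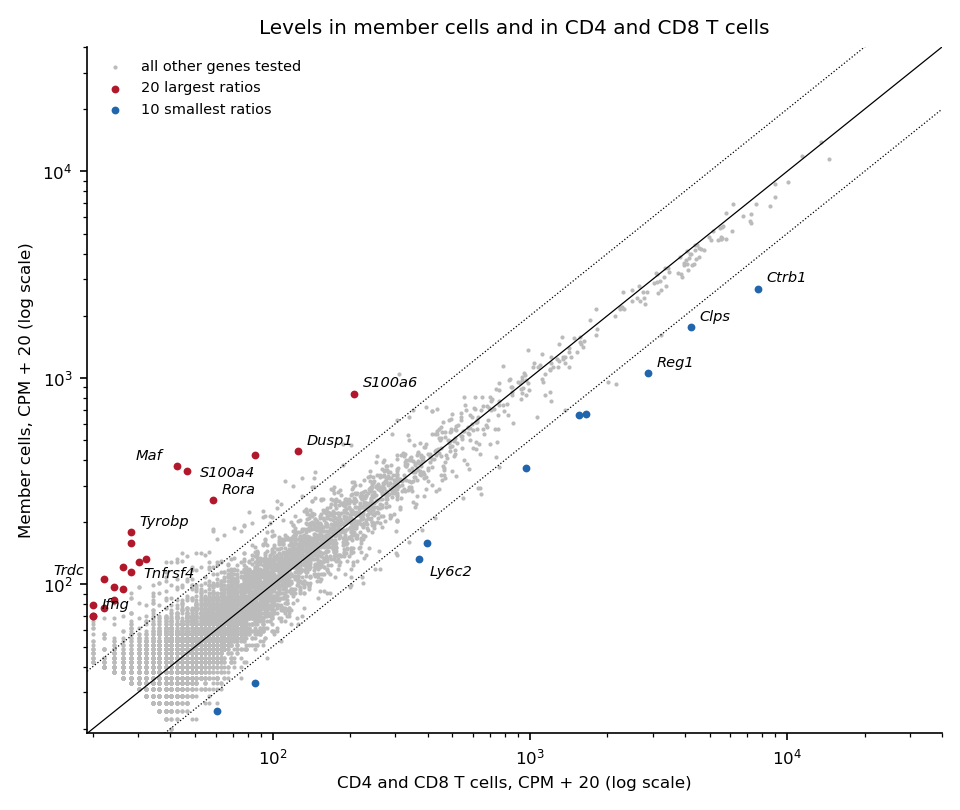
Level of each gene with 10 or more UMIs in members (vertical axis) against CD4 and CD8 T cells (horizontal axis), both as CPM plus 20 on log scales, without the 6 selecting genes. The solid line marks equal levels and dotted lines 2-fold differences; red points are the 20 genes with the largest ratio and blue points the 10 with the smallest, among them the digestive enzyme gene Ctrb1.

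Digestive enzyme genes were prominent among the lowest ratios, beside Ly6c2 (51 UMIs against 172 in T cells), Tdrp and Kazn. Ctrb1, a chymotrypsinogen of acinar cells, was at 2686 CPM in members and 7701 CPM in T cells, and Clps, Reg1, Cela3b, Cela2a and Tff2 were also among the 10 lowest. The 4 acinar markers Ctrb1, Pnliprp1, Clps and Reg1 together gave 3203 UMIs in members (7056 CPM) and 8810 in T cells (17960 CPM), and every one of the 182 members had at least 1 such UMI. The CD8 T cells, at 22410 CPM, set the level of the T cells, since CD4 T cells were at 5884 CPM, below the members. In the CD8 T cells 1372 of these UMIs came from 1 cell. The part of acinar RNA in the ratios of other genes was not tested.

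Markers of other cell types were mostly scarce. All 5 fibroblast markers were seen, summing to 866 CPM in members and 901 CPM in T cells, with Col3a1 the most abundant. The 6 macrophage markers gave 26 UMIs, 24 of them in 1 cell, with Lyz2 the most abundant (22 UMIs), and C1qa and C1qc gave none. Of the mast cell markers Kit alone was seen, with 22 UMIs in 14 members, and Cpa3, Mcpt4 and Cma1 gave none, Cpa3 and Mcpt4 by the rule. The 4 B cell markers gave 99 UMIs, 41 of them in 1 cell, with Ms4a1 at 0. Dendritic markers gave 97 UMIs, of which 83 were Ccr7, itself a T cell gene, neutrophil markers gave 2 UMIs and the endothelial markers 78 UMIs, mostly Pecam1. Globin genes gave 5391 UMIs, and 3 members held over 100 of them each. The part of these transcripts in the results was not tested.

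The target of the study was barely measured in these cells. Scap gave 18 UMIs in 17 members, 39.7 CPM (23.5 to 62.7), against 22 UMIs in the CD4 and CD8 T cells, with a ratio of 0.884 (0.447 to 1.73) whose interval includes 1. Of the 8 SREBP pathway genes 7 could be compared with T cells and none passed 2-fold, with a median ratio of 0.920.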

How the data were processed

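The authors dissociated pancreata, built a 10x 3′ library and aligned reads to mm10, with Cell Ranger 7.1.0 per the submitters' processing notes. The deposited values are counts of UMIs per gene and barcode for called cells, with no normalization. The lowest barcode held 500 UMIs, so the cell filters were applied here. Members, groupings and gene lists were chosen with earlier results of these data known. UMIs were summed per group and scaled to 1000000 (CPM) with exact 95% Poisson intervals. Shares carry exact Clopper-Pearson intervals and ratios exact conditional binomial ones. A fold against 0 UMIs used a floor of 3 counts over the group. With 1 library no test was made. Ratios for counting genes used 20 CPM added to each level and 10 UMIs. Named genes were the selecting genes, listed genes, and the 20 largest and 10 smallest ratios of each comparison, without genes used to choose cells. The result of 1 list is not reported here. Tox, Cd200 and genes of the subgroup comparisons outside the lists were chosen after their values were seen. Scrublet in scanpy 1.11.5 (expected rate 0.08) marked 496 retained cells (4.90%) and 3 members, which were kept. Functions were tested on simulated data (Python 3.11.15, numpy 2.4.6, scipy 1.17.1, pandas 2.3.3). Gene coordinates are GENCODE M21, and the identifiers matched those of the table. Alternatives changed cell limits, selecting genes, doublets, denominator, weighting, pseudocount, count filter and depth.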

Additional observations from a re-analysis of the deposited data

How the results depend on the processing

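Of 288 alternatives run for levels, shares and ratios of single genes, 259 stayed within the counting interval, 27 moved outside it and 2 reversed. Direction was checked for ratios alone, and their interval was widened where needed to hold the main ratio. The reversals were Ccl5 and Nkg7 in the regulatory arm, whose ratios with 20 CPM added were 0.381 and 0.402 when CD8 T cells replaced CD4 T cells, an alternative chosen after the data were seen, as was leaving out globin-rich cells. The number of members fell to 119 with a lower limit of 1500 UMIs (1.515% of retained cells) and to 93 without Ikzf2 in the selection (0.918%). The share was 1.22% with at least 3 selecting UMIs and 1.32% with under 3 collagen UMIs. Foxp3 was seen in 3.85% of members after thinning.

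Counts of genes past 2-fold depended most on the handling of low counts. With 5 CPM added, 655 genes were higher and 347 lower in the regulatory arm than in CD4 T cells, and 538 and 205 in members than in CD4 and CD8 T cells. With at least 30 UMIs, the counts were 137 and 39 for the regulatory arm, 145 and 277 for the innate arm against CD8 T cells, and 116 and 359 against the regulatory arm, and 120 genes were higher in members. With no filter, 292 were lower in the regulatory arm, 1473 were higher in the innate arm than in CD8 T cells, and 1329 were higher and 1802 lower than in the regulatory arm. Against CD8 T cells the regulatory arm had 226 genes higher and 85 lower. Other alternatives left these counts within 1.5 times. The count filter and the comparison cells also set how many genes can be compared. That number was not recorded for these alternatives, so their counts cannot be read as shares.

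Only 1 library of pooled animals was analysed, which leaves no replicate to omit, and differences between animals or preparations cannot be seen. No paired analysis was possible because there was a single sample. The innate arm rests on 30380 UMIs, so its ratios have the widest intervals of the 3 arms.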

Other observations

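The cell cycle condition left out 65 cells that met every other condition, with a median of 4128 UMIs. They held 14 Foxp3 UMIs in 9 cells, and their Foxp3 level had a ratio of 1.31 (0.595 to 2.81) to that of the members. Il2ra was at 43 UMIs in 12 of these cells (ratio 2.00, 1.25 to 3.24), and Gzma, at 65 UMIs, had a ratio of 1.10 (0.786 to 1.52). Tox was lower (0.475, 0.390 to 0.575), as was Xcl1 (0.409, 0.268 to 0.607). Gzma and Xcl1 are selecting genes, and the median depth of the members was 1910 UMIs. The same 2 UMIs are a lower level in the deeper cells, so the ratios of these 2 genes are a description. Gamma-delta receptor genes were seen in 10 of the 65 and NK genes in 14.

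Of the 32 retained cells with a Foxp3 UMI, 13 were members and 19 were not. Among the 19, 10 had 2 UMIs of the selecting genes and a cell cycle UMI, 2 had 2 such UMIs and over 1 B cell UMI, and 7 had fewer than 2 such UMIs, 4 of them collagen-rich. One cell above the limit of 10000 UMIs met every other condition, with 12537 UMIs.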
